A study of Mus musculus with 5 samples.

Results

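The 6 keratin genes Krt5, Krt14, Krt6a, Krt6b, Krt16 and Krt17 were followed among the 12934 genes counted in EpH4 cells, a mouse mammary epithelial cell line derived from a BALB/c mouse. They are basal and stress keratins that were selected on their measured log2 fold change, for higher RNA in the sgMef2d than in the sgControl libraries, so their difference between the groups is described here without a test. The study set out to find the genes whose expression depends on the transcription factor MEF2D. EpH4 cells stably expressing Cas9 received either a control sgRNA (sgControl, 3 libraries) or an sgRNA against Mef2d (sgMef2d, 2 libraries), so that both groups carry Cas9, and the stable lines, which the methods call clones, were selected with blasticidin and puromycin. The labels do not say whether the 2 sgMef2d libraries come from different sgRNAs or from separate cultures, so the p-values below measure only the spread between these libraries, which may be technical.

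Keratins build the intermediate filaments of epithelial cells. Each filament is made from pairs of a type I and a type II protein, and epithelia are told apart by the pairs they use. KRT8 and KRT18 are the pair of simple epithelia such as the mammary luminal layer, while KRT5 and KRT14 are the pair of the basal layer of stratified epithelia and of mammary basal cells. KRT6A, KRT6B, KRT16 and KRT17 are called stress keratins because keratinocytes switch them on in wounded or hyperproliferating skin, with KRT6 as the type II partner of the type I proteins KRT16 and KRT17.

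The library totals over the listed genes lay between 13601145 and 20498563 counts, and 3 counts in a library stood for 0.146 to 0.220 CPM (counts scaled to a common library size). The sgControl replicate 1 library stood apart from its group, with a chi-square of 10.6 and 13.7 for each degree of freedom against replicates 2 and 3, whereas these gave 1.99 with each other and the sgMef2d libraries 2.03. Between the groups, the same measure lay between 10.9 and 13, so sgControl replicate 1 differed from its own group about as much as the groups differed from each other. Counting error alone gives 1. Mef2d reached 64.3, 76.9 and 71.5 CPM in sgControl and 64.2 and 65.8 CPM in sgMef2d (adjusted p = 0.400, edgeR's quasi-likelihood test), so the RNA count of the targeted gene does not check the labels. The paper reports by immunoblot that its knockout cells lacked MEF2D protein, which RNA counts do not measure. Only when sgControl replicate 1 was left out did Mef2d pass the threshold (adjusted p = 0.00550), and all alternatives lay between 0.00550 and 0.770. The epithelial label was borne out by Epcam (251 to 278 CPM) and Cdh1 (234 to 284 CPM). Of 16 marker genes of fibroblasts, endothelium and immune cells, 7 were among the genes listed, and these were tested and summed to 577 to 679 CPM in sgControl and 531 to 572 CPM in sgMef2d. Col3a1 and Dcn rose (log2 fold changes 1.45 and 1.23, adjusted p = 0.00142 and 0.0203), Col1a2 fell (-0.54, adjusted p = 2.32e-04), so that 3 of 7 were called (42.9%, compared with 7.95% of all genes), and the part of these markers in the results below was not tested. The call of Dcn was lost in 3 of 14 alternatives.

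Krt14, the type I keratin of basal cells, was the most abundant of the 6 genes in both groups. Its 3 sgControl libraries held 443, 436 and 439 CPM, and its sgMef2d libraries 875 and 929 CPM. The control libraries lay close together, and both sgMef2d libraries were above them. On average this was 439 ± 3.50 CPM (SD, n = 3) without and 902 ± 38.6 CPM (SD, n = 2) with the Mef2d sgRNA. Krt14 RNA was thus 2.05-fold higher, or 1.04 on the log2 scale.

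Krt5, the type II partner of Krt14, was hardly detected in the control cells. It had 3, 0 and 1 counts in sgControl and 260 and 211 counts in sgMef2d, or 0.146, 0 and 0.0733 CPM against 15.3 and 14.2 CPM. From the pooled counts of 4 and 471, its level was 178-fold higher in sgMef2d, with a 95% counting interval from 68.9 to 654 (exact, from the binomial distribution, covering counting error only). As 3 of the 4 control counts were in sgControl replicate 1, the ratio without that library was 408, with an interval from 72.9 to 16149. Although this was the highest ratio of the 5 members that had a count in sgControl, the level of Krt5 per kb of exon remained 1.22% to 1.40% of that of Krt14 in the sgMef2d libraries.

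Krt6a, a type II stress keratin, gained the most RNA of the 6 genes after Krt14. It reached 4.88, 4.18 and 3.59 CPM in sgControl and 146 and 143 CPM in sgMef2d. The sgControl mean was 4.22 ± 0.643 CPM (SD, n = 3) and the sgMef2d mean 144 ± 2.38 CPM (SD, n = 2). This is 33.6-fold, or 5.07 on the log2 scale. The coefficient of variation was 15.2% among the control libraries and 1.65% between the sgMef2d libraries.

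Krt6b, the close copy of Krt6a, had 0 counts in each sgControl library and 22 and 28 counts in the sgMef2d libraries (1.29 and 1.89 CPM). Against the limit of 3 counts over the whole sgControl group, its level was at least 25.1-fold higher in sgMef2d, and the exact 95% counting interval of the pooled ratio began at 19.7-fold. Both Krt6 genes lie on chromosome 15 of GRCm38 on the minus strand, Krt6b (ENSMUSG00000023041.7) from 101676023 to 101680287 and Krt6a (ENSMUSG00000058354.7) from 101689910 to 101694307, with 9 exons each. Their coding sequences in GENCODE M21 differ at 37 of 1659 aligned bases (97.8% identity). The 60-base stretch with the most differences, in exon 4 of both genes, shows where a read can tell them apart, with the bases that differ in capitals. It runs from chr15:101692484-101692543 in Krt6a and from chr15:101678303-101678362 in Krt6b.
Krt6a: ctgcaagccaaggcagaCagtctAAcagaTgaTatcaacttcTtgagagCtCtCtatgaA
Krt6b: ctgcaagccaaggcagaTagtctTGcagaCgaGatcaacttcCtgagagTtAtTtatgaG

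Most of the coding sequence holds no such differences, and the longest run without one was 280 bases. The stretch at chr15:101694156-101694215 in exon 1 of Krt6a, given here because a read from it fits both genes, occurs letter for letter in exon 1 of Krt6b at chr15:101680131-101680190.
Krt6a and Krt6b: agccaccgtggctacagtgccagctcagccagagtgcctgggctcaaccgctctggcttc

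Of the 50-base words in the transcripts of Krt6b, 44.5% also occur in Krt6a, and of those in Krt6a 40.2% also occur in Krt6b, so the counting could have lost or moved reads between these genes. Krt6b took 50 of the 4653 counts of the pair in sgMef2d, a share of 1.07% (95% exact interval 0.799% to 1.41%). In sgControl it took 0 of 208 counts, which allows a share of up to 1.44% by the limit of 3 counts and 1.76% by the 95% exact interval, so a change of this share between the groups was not detectable at this depth. The counts of Krt6b were therefore too few to show whether it rose apart from Krt6a. An antisense gene that overlaps Krt6a, Gm49428, had 0 counts in each sgControl library and 13 and 9 counts in sgMef2d. The libraries mark strand, but whether the counting used it is not given in the sources used here, so reads of Krt6a and of this partner cannot be told apart.

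Krt16, a type I stress keratin, reached 4.29, 4.11 and 3.88 CPM in sgControl and 16.7 and 18.5 CPM in sgMef2d. This is 4.26-fold, or 2.09 on the log2 scale, and the groups do not overlap. Krt17, a type I keratin shared by stressed skin and basal cells, was scarce, with 6, 8 and 17 counts in sgControl (0.293, 0.567 and 1.25 CPM) and 50 and 51 counts in sgMef2d (2.94 and 3.43 CPM). Its coefficient of variation of 69.9% among the control libraries was over that of Krt14, Krt6a and Krt16, and sgControl replicate 3 alone held more than the other two together. The log2 fold change of Krt17 was 2.29, which is 4.88-fold, and it was 2.95 without sgControl replicate 3.

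The 3 type I members lie on the minus strand of chromosome 11 of GRCm38, with 8 exons each in the coding transcript, Krt14 (ENSMUSG00000045545.8) from 100203162 to 100207548, Krt16 (ENSMUSG00000053797.10) from 100246091 to 100248902 and Krt17 (ENSMUSG00000035557.9) from 100256217 to 100261029. Krt14 shared 86.5% of its aligned coding bases with Krt16 and 84.1% with Krt17, and Krt16 shared 78.2% with Krt17. The 60 bases without gaps at which the 3 genes are least often all the same are shown, with capitals at those bases. Most of the capitals set Krt16 apart, which differs from Krt14 at 24 bases and from Krt17 at 25, while Krt14 and Krt17 differ at 4. They lie in exon 5 at chr11:100204463-100204522, chr11:100247141-100247200 and chr11:100257782-100257841.
Krt14: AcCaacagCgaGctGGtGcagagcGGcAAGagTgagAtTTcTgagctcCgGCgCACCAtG
Krt16: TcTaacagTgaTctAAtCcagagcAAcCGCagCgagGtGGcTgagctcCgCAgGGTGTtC
Krt17: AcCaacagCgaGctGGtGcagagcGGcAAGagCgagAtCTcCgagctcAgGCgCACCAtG

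Of the 50-base words of Krt17, 3.99% occur in other genes, and of those of Krt14 13.9%, most often in Krt16. For Krt16 the share was 37.6%, with 25.2% in the pseudogene Gm11597, so reads of Krt16 could be lost to or gained from these copies. Krt5 (ENSMUSG00000061527.7, chromosome 15, 101707070 to 101712898, minus strand, 9 exons) shared 8.52% of its words with other genes.

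**Figure D1:**
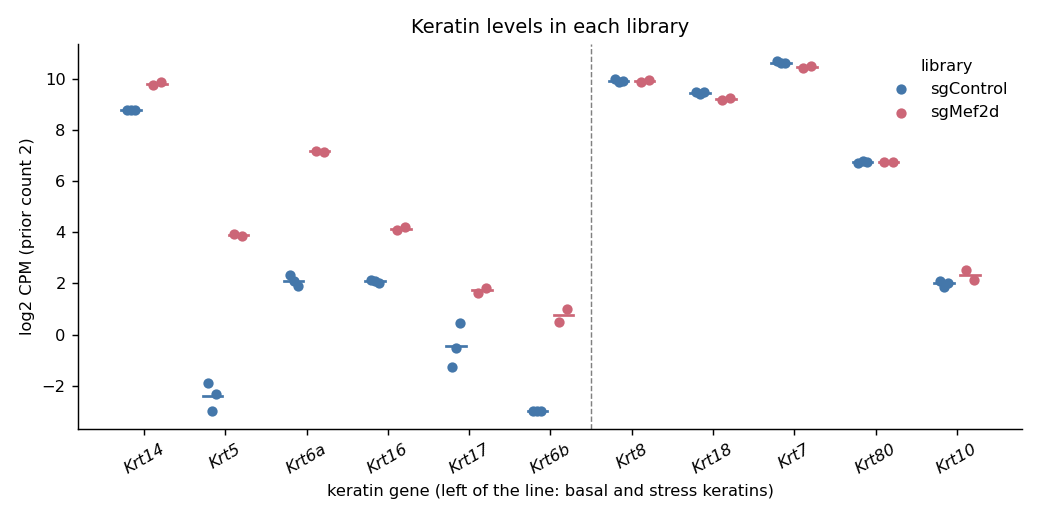
Level of each keratin as log2 CPM (prior count 2) in the 3 sgControl and 2 sgMef2d libraries, with points for libraries and bars for group means. Left of the dashed line, both sgMef2d points of each of the 6 basal and stress keratins are above its 3 sgControl points. Krt8, Krt18, Krt7, Krt80 and Krt10 differ by less than 0.4 in log2 fold change. Of these, Krt10 also has both sgMef2d points above its sgControl points, and Krt18 and Krt7 have both below.

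The selection fixed that both sgMef2d libraries lie above all sgControl libraries in each of the 6 genes, a pattern that 20.6% of the 12483 genes tested also show. In either direction, 41.1% of genes had groups that do not overlap. All 6 passed the expression filter, Krt5, Krt6b and Krt17 only through the sgMef2d libraries, where they are high. The member with the lowest log2 fold change was Krt14 (1.04), and the keratin just outside the group was Krt10, a type I keratin of differentiated keratinocytes, at 0.36 (adjusted p = 0.287, edgeR's quasi-likelihood test). Krt10 had 4.14, 3.55 and 3.96 CPM in sgControl and 5.71 and 4.24 CPM in sgMef2d.

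Levels per kb of exon allow the members to be compared with each other. In sgControl the order was Krt14 (250 ± 1.99 CPM per kb, SD, n = 3), Krt16 (2.62 ± 0.130), Krt6a (1.74 ± 0.266), Krt17 (0.453 ± 0.316), Krt5 (0.0333 ± 0.0333) and Krt6b (0). The ranges of Krt5 and Krt6b overlapped, while the other neighbours in this order did not overlap. In sgMef2d the order was Krt14 (513 ± 21.9 CPM per kb, SD, n = 2), Krt6a (59.7 ± 0.985), Krt16 (11.3 ± 0.815), Krt5 (6.72 ± 0.352), Krt17 (2.06 ± 0.224) and Krt6b (0.711 ± 0.187), with no overlap between neighbours. Thus Krt6a moved from below Krt16 to above it, and the ratio of their levels per kb went from between 0.598 and 0.735 in the sgControl libraries to 5.66 and 4.99 in the sgMef2d libraries.

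The 12 keratins listed comprised, beside the 6 members, the type II genes Krt7, Krt8, Krt80 and Krt88 and the type I genes Krt10 and Krt18. The members made up 16.8% to 17.4% of all keratin RNA per kb in sgControl and 34.3% and 34.6% in sgMef2d. Krt14 alone accounted for 33.1% to 34.0% of type I keratin RNA per kb in sgControl, and for 54.3% and 54.8% in sgMef2d, where it passed Krt18. The ratio of Krt14 to Krt18 per kb was 0.509 ± 0.0107 (SD, n = 3) in sgControl and 1.25 ± 0.0204 (SD, n = 2) in sgMef2d.

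The summed type II keratins reached 720 to 768 CPM per kb in sgControl and 768 and 799 in sgMef2d. The summed type I keratins reached 728 to 760 CPM per kb in sgControl and 916 and 964 in sgMef2d. The ratio of type II to type I RNA was 0.993 ± 0.0150 (SD, n = 3) in sgControl and 0.833 ± 0.00674 (SD, n = 2) in sgMef2d, so the added type I RNA, mostly Krt14, exceeded the added type II RNA, mostly Krt6a. With the longest transcript as the length of each gene the ratios were 1.21 and 0.983, because Krt7 and Krt80 then have shorter lengths, and the ratio was again lower in sgMef2d. As these are bulk libraries, more cells with a keratin and more RNA of it per cell cannot be told apart.

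**Figure D2:**
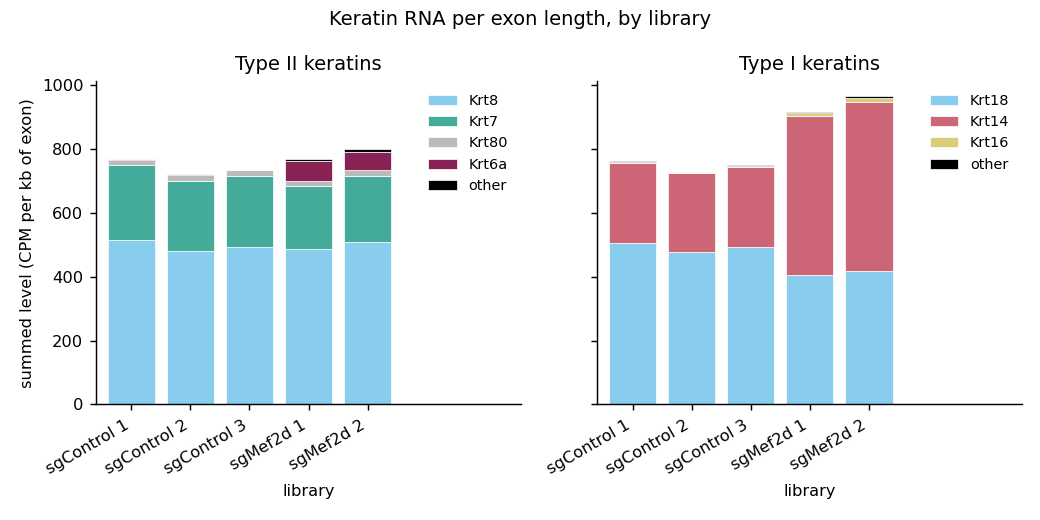
Summed keratin RNA in CPM per kb of exon for the type II (left) and type I (right) genes in each library, stacked by gene, with the genes not named in the legend as other. The type I bars are higher in the 2 sgMef2d libraries (916 and 964) than in the 3 sgControl libraries (728 to 760) through the Krt14 segment, and the Krt6a segment becomes visible in sgMef2d.

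The other keratins were called higher in no case. Of the 49 other keratin symbols looked for, 6 were listed and 5 were tested, of which 0 rose and 1 fell (20.0% called, compared with 7.95% of all genes tested, 3.67% higher and 4.28% lower). Their median log2 fold change was 7.58e-04, and that of all genes 0.0031. Krt18, the type I partner of Krt8, fell from 724, 684 and 709 CPM in sgControl to 580 and 602 CPM in sgMef2d, by -0.26 ± 0.058 (standard error) on the log2 scale (adjusted p = 0.0207, edgeR's quasi-likelihood test). This call was lost without sgControl replicate 2 (adjusted p = 0.0647) and without sgMef2d replicate 1 or 2 (adjusted p = 0.283 and 0.199), and all alternatives lay between 2.67e-08 and 0.283.

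Krt8 reached 1010, 940 and 966 CPM in sgControl and 951 and 994 CPM in sgMef2d, a log2 difference of 8.69e-04 that turns negative under other scalings (adjusted p = 0.995, edgeR). The ratio of Krt8 to Krt18 per kb was 1.01 ± 0.0120 (SD, n = 3) in sgControl and 1.21 ± 0.00604 (SD, n = 2) in sgMef2d. Krt7, another type II keratin of simple and glandular epithelia, reached 1642, 1555 and 1570 CPM in sgControl and 1394 and 1465 CPM in sgMef2d, or -0.15 on the log2 scale (adjusted p = 0.161, edgeR). Without sgControl replicate 1, Krt7 passed the threshold (adjusted p = 0.00143), with all alternatives between 0.00143 and 0.637. Krt80 lay between 106 and 110 CPM in the 5 libraries (log2 fold change 7.58e-04, also turning negative under other scalings, adjusted p = 0.996, edgeR), and Krt88, with 17 counts over sgControl and 2 over sgMef2d, did not pass the expression filter.

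The members sit within the 2 keratin gene clusters of the mouse genome. Krt6b, Krt6a and Krt5 follow each other on chromosome 15, with 9.62 kb and 12.8 kb between them, and no other keratin gene between them. On chromosome 11, Krt14 and Krt16 are 38.5 kb apart and Krt16 and Krt17 7.31 kb. Of the 27 keratin genes annotated on chromosome 11, 4 were listed, and of the 27 on chromosome 15, 8 were listed. The keratins next to the members, Krt71 beside Krt5, Krt9 beside Krt14 and Krt42 beside Krt17, were not among the genes listed. Within 500 kb of the members, a distance chosen after seeing the data, 27 other genes were tested. Of these 2 rose, Jup and Dhx58, and 1 fell, Krt18, with a median log2 fold change of 0.08. Over all genes tested, 3.67% were called higher and 4.28% lower, so these few calls are not read as a result about the neighbours. Jup, which encodes the junctional linker plakoglobin, lies 108 kb from Krt17 and Dhx58, an interferon-inducible RNA sensor, 434 kb.

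**Figure D3:**
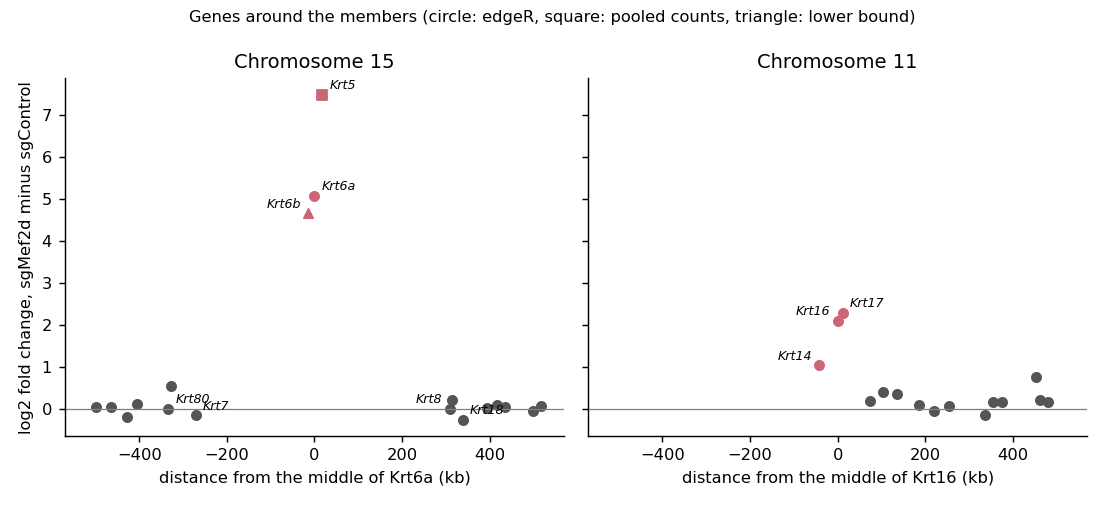
Log2 fold change (sgMef2d minus sgControl) of the genes tested within 500 kb of the members against the distance in kb from the middle of Krt6a (left) or Krt16 (right). Red symbols are the 6 members (circle for edgeR, square for the ratio of pooled counts of Krt5, triangle for the lower bound of Krt6b from 3 counts over sgControl), and the other genes, in grey, lie between -0.26 and 0.77.

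Promoter sequence in the RefSeq table of GRCm38.p6 was held for 2 of the 6 members, Krt5 and Krt14, and the Krt14 entry starts at its shorter noncoding transcript inside the gene. The 250 bases before the start of Krt5, the member nearest to 0 in the controls among those with counts, are given with its build and strand (chr15:101712906-101713155, minus strand).
Krt5: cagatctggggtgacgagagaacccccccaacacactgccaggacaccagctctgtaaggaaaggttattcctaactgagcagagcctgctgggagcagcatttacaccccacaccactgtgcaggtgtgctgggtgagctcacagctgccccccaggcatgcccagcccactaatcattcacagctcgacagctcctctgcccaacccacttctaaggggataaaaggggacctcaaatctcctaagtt

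On both strands, this window held no match to the MEF2 motif, to the AP-1 motif (TGACTCA or TGAGTCA), to TATAAA or to the AP-2 motif GCCNNNGGC, of which the MEF2 motif and TATAAA can overlap. Of the 32851 promoter windows of the same length in the table, 2.92% held the MEF2 motif, 4.46% the AP-1 motif, 12.4% TATAAA and 13.7% the AP-2 motif. This says only that these letters are not in this window.

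Keratin filaments are anchored at desmosomes, which join cells, and at hemidesmosomes, which join cells to the basement membrane. Of 25 genes of these structures and of the keratin linkers, 22 were tested, and 7 rose, 1 fell and 14 did not pass the threshold, with a median log2 fold change of 0.16 (36.4% called, compared with 7.95% of all genes). Col17a1, which encodes the hemidesmosomal collagen XVII, rose from 0.634, 0.780 and 0.293 CPM in sgControl to 16.5 and 15.02 CPM in sgMef2d (log2 fold change 4.75, standard error 0.22, adjusted p = 3.37e-07, edgeR). Dsg3, a desmosomal cadherin of stratified epithelia, rose from 0.390, 0.780 and 0.147 CPM to 12.1 and 12.5 CPM (log2 fold change 4.79, standard error 0.27, adjusted p = 2.23e-06, edgeR). These 2 genes were near the limit of detection in the controls and passed the expression filter only through the sgMef2d libraries, where they are high. Their entry into the test was thus tied to their rise. The list was also chosen with earlier results of these data known, so its share is a description.

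The other changes of this list were within 1.5-fold. Itgb4, the hemidesmosomal integrin subunit, and Jup rose (log2 fold changes 0.52 and 0.35, adjusted p = 0.00438 and 0.0201, edgeR), and Dst, which encodes the linker dystonin, fell (-0.56, adjusted p = 0.0159, edgeR). Itgb4 lost its call without either sgMef2d library, and Jup and Dst without these or sgControl replicate 2, and Dst also with DESeq2. Dst had 484 CPM in sgControl replicate 1 and 671 and 676 CPM in replicates 2 and 3, as against 420 and 410 CPM in sgMef2d. Leaving out sgControl replicate 1 gave 14 calls in this list, in a fit that called 29.4% of all genes. There were 3 calls without sgControl replicate 2 (4.84% of all genes) and 2 without sgMef2d replicate 1 or 2 (1.88% and 1.83% of all genes), and Col17a1 and Dsg3 passed under all 14 alternatives.

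Of 39 transcription factors and receptors known to act on keratin genes, 34 were tested, and 12 rose, 0 fell and 22 did not pass the threshold (35.3% called, all higher, compared with 3.67% of all genes called higher). Their median log2 fold change was 0.25. This list, like all lists here, was chosen with earlier results of these data known, so the share called is a description and not independent support. Pitx1, a homeodomain factor whose rise was among those results, went from 12.8, 12.1 and 13.9 CPM to 52.8 and 60.9 CPM (log2 fold change 2.14, adjusted p = 3.17e-07, edgeR). Trp63, which encodes the basal cell regulator p63, rose from 28.7, 26.7 and 32.0 CPM to 47.1 and 50.03 CPM (log2 fold change 0.74, adjusted p = 4.84e-04, edgeR). Both sgMef2d libraries were above all control libraries in these genes.

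Grhl3, a factor of epidermal differentiation, rose from a low level (0.440 to 0.496 CPM) to 3.71 and 2.83 CPM, or 2.77 on the log2 scale (adjusted p = 3.89e-04, edgeR). Grhl3 and Tfap2c, another regulator called higher, passed the expression filter only through the sgMef2d libraries, where they are high. Fosl1, an AP-1 subunit, rose by less (log2 fold change 0.45, adjusted p = 0.00125, edgeR). Nfe2l2, which encodes the oxidative stress factor NRF2, differed by 0.09 on the log2 scale (adjusted p = 0.446) and Egfr by -0.05 (adjusted p = 0.777), both from edgeR's quasi-likelihood test and both chosen after their values were seen. The list had 20 calls without sgControl replicate 1, 5 of them lower (29.4% of all genes were called in this fit, 14.6% higher), and 6 and 7 calls without sgMef2d replicates 1 and 2 (1.88% and 1.83% of all genes). Pitx1, Grhl3, Trp63 and Fosl1 passed under all 14 alternatives.

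Of 36 genes that accompany the stress keratins in inflamed or wounded skin, 16 were tested, and 6 rose, 1 fell and 9 did not pass the threshold, with a median log2 fold change of 0.83 (43.8% called, compared with 7.95% of all genes). The genes that rose stayed at low levels. Sprr1a, Sprr1b and Serpinb2 passed the expression filter only through the sgMef2d libraries, where they are high, as did S100a7a and Il1a, which were not called. The list was also chosen with earlier results of these data known, so its share is a description. Sprr1a, a precursor of the cornified envelope, rose from 7, 2 and 4 counts to 53 and 36 counts (log2 fold change 3.34, adjusted p = 4.28e-04, edgeR), and Sprr1b from 0 counts in each control library to 27 and 19 counts, at least 23.1-fold higher against 3 counts over the sgControl group. Serpinb2, an inhibitor of proteases, had 3 counts over sgControl and 40 over sgMef2d. S100a8, a calcium-binding alarm protein, rose from 1.76 to 2.83 CPM in sgControl to 5.53 and 5.45 CPM (log2 fold change 1.27, adjusted p = 0.00421, edgeR), a call lost without sgMef2d replicate 1 or 2.

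Lcn2, which encodes the antimicrobial lipocalin 2, fell, from 52.4, 50.1 and 47.2 CPM in sgControl to 31.4 and 32.8 CPM in sgMef2d (log2 fold change -0.64, adjusted p = 5.90e-04, edgeR). The summed level of the list was 657 to 798 CPM in sgControl and 717 and 756 CPM in sgMef2d, as Fabp5, at 388 and 389 CPM on average, made up about as much as the rest (chosen after its values were seen). This list had 12 calls without sgControl replicate 1 (29.4% of all genes) and 4 without sgMef2d replicate 1 or 2 (1.88% and 1.83% of all genes).

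NRF2 is known to induce Krt6a, Krt16 and Krt17 in keratinocytes. Of 24 NRF2 target genes 23 were tested, and 2 rose and 0 fell (8.70% called, all higher). Of all genes, 7.95% were called and 3.67% were called higher. The median log2 fold change of the list was 0.03, and these 2 calls are too few to be read as a result about it. Gsta4, a glutathione transferase, rose from 27.2, 28.9 and 25.6 CPM to 46.0 and 47.6 CPM (log2 fold change 0.78, adjusted p = 1.64e-04, edgeR). Gsta1 had 4 counts over sgControl and 23 over sgMef2d, and passed the expression filter only through the sgMef2d libraries. The call of Gsta1 was lost with DESeq2 and without sgMef2d replicate 2, and Gsta1 did not pass the filter in 3 other alternatives. Without sgControl replicate 1, 8 of 22 were called (36.4%), beside 29.4% of all genes in the same fit, and 1 was called without sgMef2d replicate 1 or 2 (1.88% and 1.83% of all genes).

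**Figure D4:**
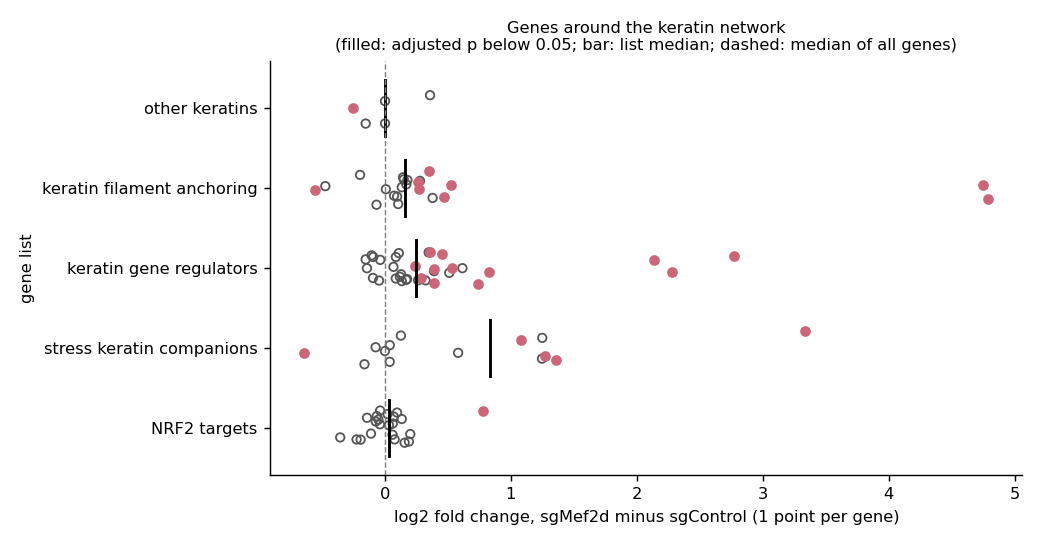
Log2 fold change of each gene tested in 5 lists, with filled points past the adjusted p threshold, a bar at each list's median and a dashed line at the median of all genes. Genes with 4 or fewer counts over sgControl (Sprr1b, Serpinb2 and Gsta1) are not drawn but count in the medians of 0.83 for the stress keratin companions and 0.03 for the NRF2 targets.

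Other markers of the mammary layers were called in both directions. Of 15 further markers of basal and myoepithelial cells, 10 were tested, and Vim and Trp63 rose while Acta2 and Actg2, 2 smooth muscle actins, fell (40% called, compared with 7.95% of all genes). Vim went from 10.8, 13.0 and 11.9 CPM in sgControl to 34.1 and 37.4 CPM in sgMef2d (log2 fold change 1.59, adjusted p = 3.95e-06, edgeR). Acta2 went from 16.9, 19.9 and 19.1 CPM in sgControl to 9.59 and 11.6 CPM in sgMef2d (log2 fold change -0.81, adjusted p = 0.00237, edgeR), a call lost without sgMef2d replicate 1. Actg2, at -1.26 on the log2 scale (adjusted p = 0.0494, edgeR), lost its call in 9 of 14 alternatives. Myh11, Cnn1 and Oxtr, which mark contractile myoepithelium, were not among the genes listed. Of 21 luminal markers, 13 were tested, with Krt18 lower and Cldn4 higher (15.4% called, compared with 7.95% of all genes). Cldn4, a tight junction claudin, had a log2 difference of 0.26 (adjusted p = 0.0407, edgeR), and its call was lost with the replicate block and without any library but sgControl replicate 1.

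The genes whose profile over the 5 libraries was nearest to that of each member, by the root mean square difference of centred log2 CPM among 11903 genes whose average log2 CPM was 0 or more, are given as a description. Nearest to Krt6a were Col17a1 (0.37) and Dsg3 (0.54), and nearest to Krt5 were Dmkn, which encodes dermokine (0.86), and Col17a1 (1.03). Krt14 was followed most closely by Apol9a (0.06) and Hcn2 (0.06), Krt16 by Pitx1 (0.10) and Ccnd2 (0.14), Krt17 by Zfp750 (0.30) and Notch3 (0.33), and Krt6b by Pde1a (0.30) and Sbsn (0.39). With 2 groups of 5 libraries in all, these distances mostly reflect the size of the difference between the groups.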

How the data were processed

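RNA of 5 libraries was counted per gene. The authors checked the reads with FASTQC, aligned them with STAR2 to GRCm38 and checked them with RSeQC, and the submitters' notes also name CASAVA and Subread. The authors deposited raw counts, whole numbers without normalization, from which low-count genes had been removed, since every gene listed reached 11 counts in a library. Identifiers were matched without their version to GENCODE M21 (12934 of 12934).

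The 6 genes and all gene lists were chosen with earlier results of these data known. Counts were normalized by TMM and tested with edgeR 4.0.16 in R 4.3.3 (quasi-likelihood, bias-adjusted form, default expression filter, no block), with Benjamini-Hochberg adjustment over all 12483 genes tested and a threshold of 0.05. Standard errors of log2 fold changes were derived from the F statistic of the edgeR test. The biological coefficient of variation was 0.0607. Log2 CPM used a prior count of 2. Levels per kb used the union of annotated exons. Coding sequences were aligned with Biopython 1.88. Named genes were the members, every other keratin listed, Mef2d, the genes past the threshold of each list (up to 5 with the smallest p), the 2 nearest profiles of each member and the nearest genes on either side, of which 1 is not reported here. The fit was tested on simulated counts. Alternatives were other normalizations and filters, the legacy form, DESeq2 1.42.0, limma-voom (limma 3.58.1), a block for the replicate number, and fits with 1 library removed. Counting intervals do not cover PCR copies, which were not identified.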

Additional observations from a re-analysis of the deposited data

How the results depend on the processing

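All 6 members were higher in sgMef2d in each of the 83 values that the 14 alternative fits gave for them (Krt6b could not be fitted with the minimum count of 30). As the members were picked for their rise in these libraries, this direction is not a test. In 76 of the 83 values the log2 fold change moved by less than the spread between replicates. The log2 fold change ranged from 0.99 to 1.08 for Krt14, 4.98 to 5.21 for Krt6a, 2.02 to 2.16 for Krt16, 1.81 to 2.95 for Krt17, 6.89 to 8.38 for Krt5 and 5.64 to 7.90 for Krt6b. The values of Krt5 and Krt6b depend on how low counts are treated. The near-zero log2 fold changes of Krt8 and Krt80 turned negative with RLE factors (-1.57e-04 and -2.44e-04), library totals only (-0.0067 and -0.0068), no expression filter (-8.06e-04 and -9.02e-04), DESeq2 (-2.15e-04 and -1.82e-04) and the replicate block (-0.0030 and -0.0071), and leaving out single libraries gave -0.0356 to 0.0289 for Krt8 and -0.0156 to 0.0205 for Krt80.

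Leaving out 1 library at a time gave 234 to 3639 genes past the threshold, 0 to 2 of the other keratins, 2 to 14 anchoring genes, 6 to 20 keratin gene regulators, 4 to 12 stress keratin companions, 1 to 8 NRF2 targets, 2 to 5 basal and myoepithelial markers, 0 to 3 luminal markers and 2 to 5 fibroblast, endothelial and immune markers. A fit without 1 sgMef2d library takes the lone library to vary like the sgControl group. The stricter filter left 1 NRF2 target past the threshold. The ratio of type II to type I keratins became 1.21 in sgControl and 0.983 in sgMef2d with the longest transcript as the length. With the replicate block 1 luminal marker was called, as Cldn4 lost its call, and the block changed no other count of calls by over 1.5 times. Libraries with the same number did not deviate together (correlations of 0.0113 and -9.16e-04). As the deviations of 2 sgMef2d libraries mirror each other, this check cannot show whether libraries with the same number share a batch. Of the 24 list genes other than keratins that the naming rule picked, 15 kept their call under every alternative that could be computed for them.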
